A study of Arabidopsis thaliana with 4 samples.

Results

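The 10 genes studied here act in jasmonate synthesis and in its defence output, and their transcripts were measured in the rosette centre of Arabidopsis: the synthesis genes LOX2, LOX3, LOX4, AOS, AOC1, AOC2 and OPR3, and the output genes VSP1, VSP2 and PDF1.2. They were picked by locus identifier as genes of this pathway, with earlier results of these data known, and they are 10 of the 32678 loci in the table. Total RNA of 4 cores of the accession Col-0, called core 1 to core 4, was depleted of ribosomal RNA and sequenced with a strand-specific Ion Torrent kit. Each core was the central 1.5 to 2 cm of the rosette at an age of 31 days. Sown seeds had first spent 1 to 2 days in the cold (4 °C), and the plants then grew at 22 °C in light of 100 µE with a 16-h photoperiod. All 4 libraries form 1 group, with no transgene and no control, so the data describe levels in this tissue and their spread between cores. The labels do not state whether each core is another plant. Every p-value therefore covers the spread between these libraries only, which may be technical.

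Jasmonates are fatty acid hormones that plants make after wounding, insect feeding and infection by fungi that kill their host cells, and also during stamen development. Lipoxygenases of the LOX2, LOX3, LOX4 and LOX6 type add oxygen to linolenic acid in the plastid, allene oxide synthase (AOS) and the allene oxide cyclases (AOC) turn the product into 12-oxo-phytodienoic acid, and the reductase OPR3 continues the route in the peroxisome. The isoleucine conjugate of jasmonic acid joins the receptor COI1 to JAZ repressors, whose breakdown frees MYC transcription factors. One branch of the output, led by MYC2, includes the vegetative storage proteins VSP1 and VSP2, and the other, which also needs ethylene and ERF factors, includes the plant defensin PDF1.2.

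Of the 10 genes, 7 have 1 transcript model in the table and could be measured, while OPR3 (3 models), VSP1 and VSP2 (2 models each) could not. Among nuclear protein-coding loci, the median locus averaged 0.25 counts per core where it had 3 or more models and 0.5 where it had 2, against 55.5 where it had 1. With all models summed, OPR3 (AT2G06050, chromosome 2, 2359114 to 2362375, minus strand) had 1, 1, 0 and 0 counts in cores 1 to 4. VSP1 (AT5G24780, chromosome 5, 8507590 to 8509201, minus strand) and VSP2 (AT5G24770, chromosome 5, 8500468 to 8502224, minus strand) had no count in any core. No count in any core was also found for 36.5% of loci with 2 models and 6.79% of loci with 1 model. These counts are therefore no measure of the level of OPR3, VSP1 or VSP2, and all further values are of the other 7 genes.

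PDF1.2 has near-identical copies, and the letters show how far reads could be told apart. The coding sequences of PDF1.2 (AT5G44420, chromosome 5, 17906968 to 17907638, minus strand), PDF1.2b (AT2G26020, chromosome 2, 11089123 to 11089805, plus strand) and PDF1.2c (AT5G44430, chromosome 5, 17908850 to 17909507, minus strand) are each 243 bases long and are given 5′ to 3′ from the TAIR10.1 genome, with the bases that differ from PDF1.2 in capitals.
PDF1.2: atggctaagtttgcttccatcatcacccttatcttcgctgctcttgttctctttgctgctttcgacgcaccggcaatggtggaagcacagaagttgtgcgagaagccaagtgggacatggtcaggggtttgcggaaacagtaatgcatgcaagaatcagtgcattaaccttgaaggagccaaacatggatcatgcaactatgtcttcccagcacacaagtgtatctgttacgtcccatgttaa
PDF1.2b: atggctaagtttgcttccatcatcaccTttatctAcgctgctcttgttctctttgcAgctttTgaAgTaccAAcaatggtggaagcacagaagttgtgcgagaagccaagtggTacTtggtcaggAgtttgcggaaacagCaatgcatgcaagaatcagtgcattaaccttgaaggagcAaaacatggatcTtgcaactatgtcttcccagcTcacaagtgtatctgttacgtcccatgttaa
PDF1.2c: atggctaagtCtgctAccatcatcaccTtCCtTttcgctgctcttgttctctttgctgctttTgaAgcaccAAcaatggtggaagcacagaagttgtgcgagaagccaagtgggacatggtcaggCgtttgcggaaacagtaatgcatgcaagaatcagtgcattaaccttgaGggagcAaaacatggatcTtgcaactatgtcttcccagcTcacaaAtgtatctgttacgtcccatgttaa
PDF1.2b differed from PDF1.2 at 15 positions (93.8% identical) and PDF1.2c at 16 (93.4% identical). The longest identical run was 40 bases with PDF1.2b and 52 bases with PDF1.2c. No window of 100 bases in the exons of PDF1.2 occurred at another annotated nuclear locus, and 3 of its 530 windows of 50 bases did, all in PDF1.2c. AOC1 and AOC2, which lie in tandem, are 89.9% identical in coding sequence, with a longest identical run of 47 bases, and LOX3 and LOX4 are 79.4% identical. AOC1 and AOC3, of the same tandem block, are 81.1% identical in coding sequence, with a longer identical run of 73 bases. Of the windows of 50 bases, 24 of 1142 in AOC1 and 1 of 1251 in AOC2 occurred in AOC3. None of the 7 measured genes shared a window of 100 bases with another locus. Their exons did not overlap exons of an opposite-strand locus of the table. Identical windows do not cover reads aligned with mismatches, so a small exchange of counts between copies was not tested.

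Letters of the known binding motifs of both output branches were searched in the 300 bases before each annotated gene start, on both strands: the G-box CACGTG, bound by MYC factors, and the GCC-box GCCGCC, bound by ERF factors. Among the 10 genes the G-box was found only before AOS and the GCC-box only before PDF1.2. Of 26711 nuclear protein-coding genes, 7.18% held the G-box and 2.24% the GCC-box in the same window. The upstream sequences of these 2 genes are given on the strand of the gene, with the motif in capitals: AOS at chr5:17099596-17099895 and PDF1.2 at chr5:17907639-17907938, both on the minus strand of TAIR10.1.
AOS: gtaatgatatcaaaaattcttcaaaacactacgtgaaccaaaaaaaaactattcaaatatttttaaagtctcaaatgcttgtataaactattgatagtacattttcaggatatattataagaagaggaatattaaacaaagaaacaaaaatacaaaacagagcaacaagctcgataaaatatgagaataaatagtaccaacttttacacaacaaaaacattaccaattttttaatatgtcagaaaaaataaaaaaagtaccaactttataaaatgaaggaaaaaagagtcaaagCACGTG
PDF1.2: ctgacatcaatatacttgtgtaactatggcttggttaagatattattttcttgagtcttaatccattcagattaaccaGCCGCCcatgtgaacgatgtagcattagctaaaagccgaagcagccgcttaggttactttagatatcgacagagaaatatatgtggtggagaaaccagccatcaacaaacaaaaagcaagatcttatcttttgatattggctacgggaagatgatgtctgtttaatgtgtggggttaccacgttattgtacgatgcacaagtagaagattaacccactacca
In PDF1.2 the motif begins 222 bases before the gene start, and in AOS it takes the last 6 bases. These matches describe letters only.

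Of the 7 measured genes, LOX2, AOS and PDF1.2 were the highest per kb, AOC2 was intermediate, and LOX3, LOX4 and AOC1 lay below the median of protein-coding loci. Counts were scaled to CPM, counts per 1000000 counts of nuclear loci with 1 model, and levels of different genes are compared as CPM per kb of exon. All 7 genes had at least 1 CPM in each core, as did 50.0% of the nuclear loci with 1 model and 12906 of the 20912 protein-coding ones. AOC1 met this mark narrowly, with 1.04 CPM from 7 counts in core 2. LOX2 averaged 72.5 ± 28.3 CPM per kb (SD, n = 4, as for all means below), AOS 62.2 ± 5.57 and PDF1.2 62.2 ± 29.9. These 3 levels did not differ beyond their spread, and exceeded the level of 90.1 to 91.5% of nuclear protein-coding loci with 1 model, whose median was 4.99 CPM per kb. AOC2 followed with 13.95 ± 4.91 CPM per kb, and its 4 cores (9.33 to 19.8) did not overlap those of PDF1.2 (22.3 to 92.5). LOX3 had 2.71 ± 0.456, AOC1 1.67 ± 1.21 and LOX4 1.58 ± 0.642 CPM per kb. The cores of these last 3 genes overlapped. Per kb of coding sequence, which is 243 of the 579 exon bases of PDF1.2, the level of PDF1.2 was 148, that of LOX2 87.6 and that of AOS 81.2 CPM per kb, so the order at the top depends on the length used.

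**Figure D1:**
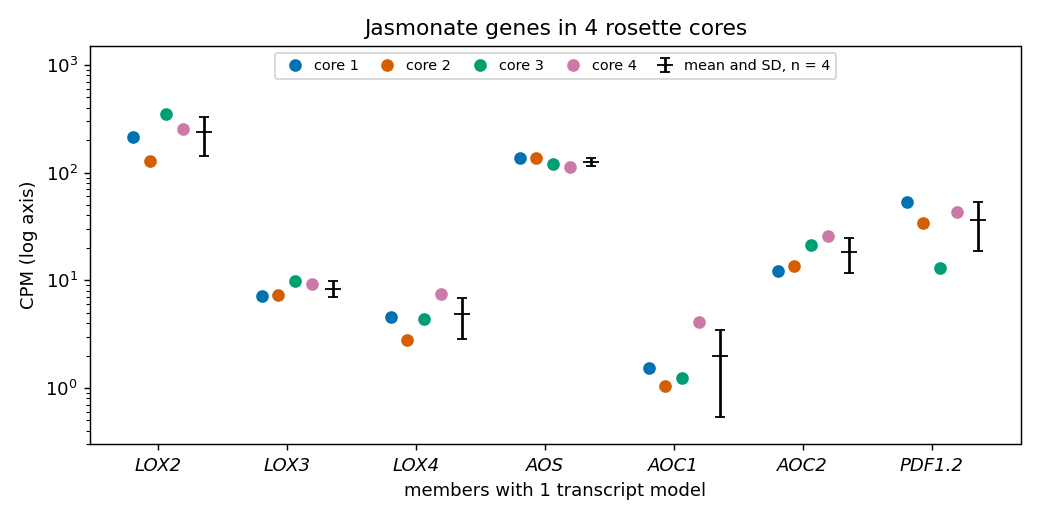
CPM of the 7 genes with 1 transcript model (log axis), with 1 point per core and the mean with its SD (n = 4). LOX2 is lowest in core 2 (128 CPM) and highest in core 3 (349 CPM), AOS stays between 113 and 136 CPM, and PDF1.2 is lowest in core 3 with 12.9 CPM.

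Among the lipoxygenases, LOX2 (AT3G45140, chromosome 3, 16525245 to 16529352, plus strand), which makes most of the jasmonate precursor of wounded leaves, was the highest. It had 213, 128, 349 and 253 CPM in cores 1 to 4. Core 3 was the highest and core 2 the lowest, a 2.73-fold range that exceeded counting noise (adjusted p = 2.46e-153, chi-square test of counts with Benjamini-Hochberg adjustment over 12771 loci). Without core 2 the range was 1.63-fold (adjusted p = 1.83e-50, same chi-square test). LOX3 (AT1G17420, chromosome 1, 5977323 to 5981521, plus strand), known with LOX4 for its part in stamen development and in the vascular wound response, had 7.11, 7.25, 9.94 and 9.18 CPM. Its 4 cores lay within 1.4-fold of each other and did not vary beyond counting noise (adjusted p = 0.244, same chi-square test). LOX4 (AT1G72520, chromosome 1, 27308513 to 27312756, plus strand) had 4.6, 2.81, 4.35 and 7.497 CPM. Core 4 was highest and core 2 lowest, a 2.67-fold range (adjusted p = 0.00509, same chi-square test). This call rests on 19 to 40 counts per core and was lost without core 2 (1.72-fold, adjusted p = 0.0707, chi-square test) and without core 4 (1.64-fold, adjusted p = 0.259, chi-square test).

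Within each core LOX2 stood above both relatives per kb. The log2 ratio of LOX2 over LOX3 was 4.81, 4.05, 5.05 and 4.69 in cores 1 to 4, a mean of 4.65 ± 0.43, or 25.1-fold. That of LOX2 over LOX4 was 5.49 ± 0.52, or 45.0-fold. LOX3 exceeded LOX4 by 0.84 ± 0.49 on the log2 scale, and by 0.60, 1.33, 1.16 and 0.27 in cores 1 to 4. Each of these ratios had the same sign in 4 of 4 cores and an exact two-sided sign-flip permutation p of 0.13, the smallest that 4 cores allow (0.15 after Benjamini-Hochberg adjustment over 6 pairs). LOX6, the other lipoxygenase of this route, had 26.0 CPM per kb. Of the CPM per kb summed over the 4 genes, LOX2 held 68.9 ± 7.91%, LOX6 26.8 ± 7.44%, LOX3 2.74 ± 0.509% and LOX4 1.56 ± 0.524%. LOX6 had 79.5, 85.1, 95.2 and 87.0 CPM in cores 1 to 4, a mean of 86.7 ± 6.49 CPM. The share of LOX2 was lowest in core 2, with 57.8%, and highest in core 3, with 76.4%.

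**Figure D2:**
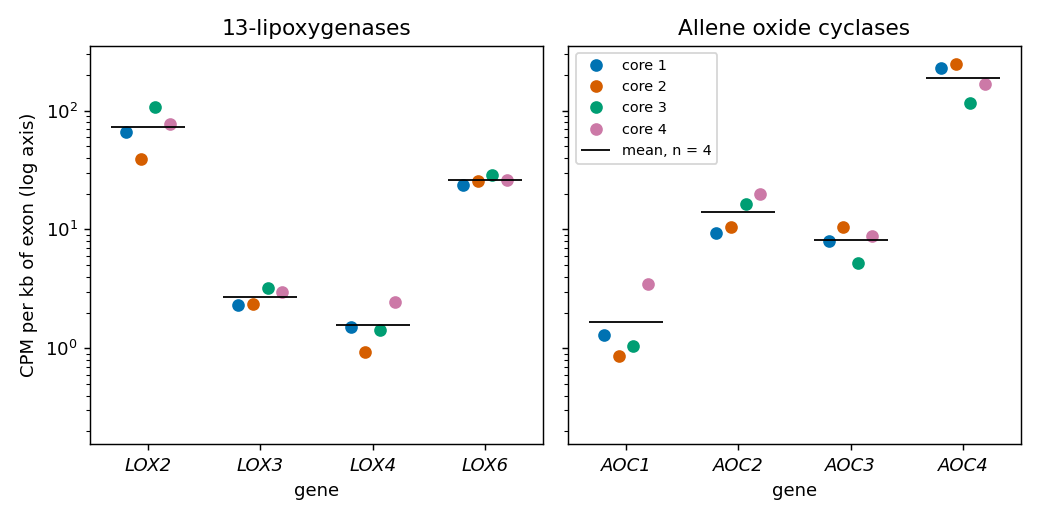
CPM per kb of exon (log axis) of the 4 lipoxygenases of the jasmonate route and the 4 allene oxide cyclases, with 1 point per core and a line at the mean (n = 4). LOX2 and AOC4 are the highest of their families in every core, and AOC1 and LOX4 are the lowest on average.

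AOS (AT5G42650, chromosome 5, 17097564 to 17099595, minus strand), a single-copy step of the route, had the smallest relative spread of the 6 tested genes. It had 136, 136, 121 and 113 CPM in cores 1 to 4, and its coefficient of variation was 8.95%. The 1.2-fold range exceeded counting noise (adjusted p = 0.000838, chi-square test of counts), and 14.1% of the tested loci had a smaller range. AOS and LOX2, successive steps, had no constant order: the log2 ratio of AOS over LOX2 per kb was 0.03, 0.77, -0.85 and -0.48 in cores 1 to 4 (mean -0.13 ± 0.70, exact sign-flip permutation p = 0.75). AOS was the higher in cores 1 and 2 and the lower in cores 3 and 4. AOS exceeded AOC2, 1 of the 4 cyclase genes of the next step, by 2.22 ± 0.64 on the log2 scale, in 4 of 4 cores (exact sign-flip permutation p = 0.13). It lay below the sum of the 4 cyclase genes in each core, with 66.9, 66.8, 59.5 and 55.7 CPM per kb for AOS and 247, 268, 137 and 201 CPM per kb for the sum.

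The cyclase genes AOC1, AOC2 and AOC3 lie in tandem on chromosome 3, and AOC4 lies on chromosome 1. AOC2 (AT3G25770, chromosome 3, 9406669 to 9408071, plus strand) had 12.1, 13.6, 21.1 and 25.7 CPM in cores 1 to 4. It was higher in cores 3 and 4 than in cores 1 and 2, a 2.12-fold range beyond counting noise (adjusted p = 1.28e-08, chi-square test of counts). AOC1 (AT3G25760, chromosome 3, 9403779 to 9405338, plus strand) had 11, 7, 8 and 22 counts, or 1.53, 1.04, 1.24 and 4.12 CPM. It was below the filter on low counts and has no test in the comparison of all loci. The exact Poisson interval (95%, counting error only) of core 4, 2.58 to 6.24 CPM, overlapped that of core 1, 0.766 to 2.75 CPM, but not those of core 2, 0.416 to 2.13 CPM, and core 3, 0.536 to 2.45 CPM. With no filter on low counts AOC1 varied beyond counting noise (3.98-fold, adjusted p = 0.00119, chi-square test). Per kb, AOC1 was lower than AOC2 in each core, with a log2 ratio of AOC1 over AOC2 of -2.80, -3.50, -3.88 and -2.49 (mean -3.17 ± 0.64, exact sign-flip permutation p = 0.13).

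The neighbour AOC3 had 13.2, 17.5, 8.69 and 14.6 CPM and thus its lowest value in core 3, where AOC2 was among its higher 2 cores. AOC4 had 307, 330, 154 and 226 CPM and was also lowest in core 3. AOC4 held 88.0 ± 4.83% of the CPM per kb summed over the 4 cyclases, AOC2 7.34 ± 4.12%, AOC3 3.84 ± 0.478% and AOC1 0.833 ± 0.621%. The share of AOC2 was 3.77, 3.91, 11.8 and 9.85% in cores 1 to 4. The genes that flank the tandem block were nearly silent: AT3G25750 on the AOC1 side had 1, 3, 0 and 1 counts, and AT3G25790 on the AOC3 side 0, 1, 0 and 1.

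PDF1.2 varied most between cores of the 6 tested genes. It had 53.6, 34.3, 12.9 and 43.3 CPM in cores 1 to 4. Core 3 was the lowest and core 1 the highest, a 4.16-fold range beyond counting noise (adjusted p = 3.04e-34, chi-square test of counts), and 98.5% of tested loci had a smaller range. Without core 3 the range was 1.57-fold (adjusted p = 1.59e-06, chi-square test). PDF1.2 and LOX2 thus ran in opposite order at core 3, the lowest core of PDF1.2 and the highest of LOX2. With the counts of PDF1.2, PDF1.2b and PDF1.2c summed, a choice made after the values were seen, the cores had 54.9, 35.5, 15.7 and 43.7 CPM, a 3.50-fold range (adjusted p = 3.41e-30, chi-square test).

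The copies of PDF1.2 were low. PDF1.2b had 0, 3, 17 and 0 counts in cores 1 to 4, so nearly all of its counts came from core 3, where PDF1.2 was lowest. PDF1.2c, the tandem neighbour of PDF1.2, had 10, 5, 1 and 2 counts. PDF1.2 held 97.3, 96.6, 82.8 and 99.1% of the CPM per kb summed over the 3 copies, and PDF1.2b 16.1% in core 3. On its other side PDF1.2 is followed by AT5G44410, with 19.0, 22.0, 43.2 and 21.0 CPM, which was highest in core 3. Beyond PDF1.2c, AT5G44440 had 2, 1, 11 and 0 counts.

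Across the 6 genes that passed the filter on low counts, 5 varied between cores beyond counting noise, against 64.0% of the 12771 tested loci. Most loci of these libraries vary in this sense, so the count does not set the jasmonate genes apart. edgeR's quasi-likelihood fit, which compares the spread of a gene with that of genes of like level, called none of the 6 genes and 0 of 12771 loci at an adjusted p of 0.05. With no filter on low counts the same edgeR fit called 431 loci, among them PDF1.2 (adjusted p = 0.00875 by edgeR). At an unadjusted p of 0.05 the edgeR fit with the filter called 661 loci (5.18%), among them PDF1.2 (adjusted p = 0.868 by edgeR) and LOX2 (adjusted p = 0.961 by edgeR). The fit takes its trend and its expected spread from these same loci, so a share near 0.05 was largely set by the fit. The quasi-dispersion was 13.7 times its trend for PDF1.2, 7.87 times for LOX2, 3.97 times for AOC2 and 2.43 times for LOX4. It was below the trend for LOX3 (0.521 times) and AOS (0.388 times). Even the ratio of 13.7 gave an unadjusted p of only 0.011 by edgeR. The absence of calls after adjustment over 12771 loci is therefore no evidence that genes of like level spread alike. By this ratio PDF1.2 ranked 160th and LOX2 410th of the tested loci, while AOS ranked 9809th. The unadjusted p of a gene largely restates this rank and is no separate result.

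**Figure D3:**
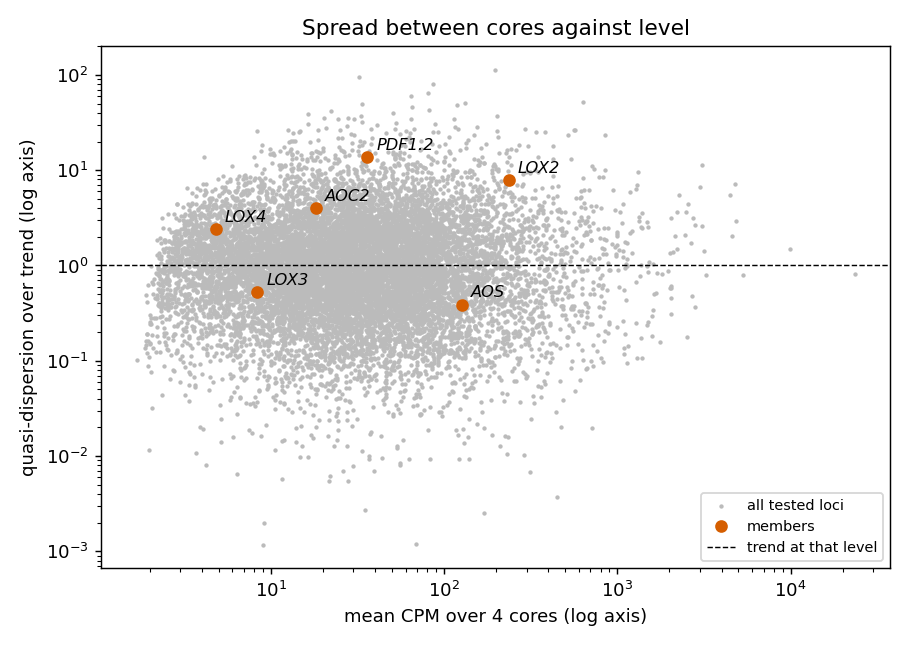
Quasi-dispersion over its trend against mean CPM (both log axes) for the 12771 tested loci (grey) and the 6 tested jasmonate genes (orange), with a dashed line where the spread equals the trend. PDF1.2 (13.7) and LOX2 (7.87) lie high in the cloud, and LOX3 (0.521) and AOS (0.388) lie below the line.

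The genes had no common order of the cores. PDF1.2 and AOS were highest in core 1, LOX2 and LOX3 in core 3, and LOX4 and AOC2 in core 4. AOS was nearly level in cores 1 and 2 (135.97 and 135.83 CPM), and with library totals in place of TMM scaling it was highest in core 2. With TMM scaling none of the 6 was highest in core 2, the highest core of 27.4% of tested loci. Tissue and harvest markers also moved between cores, and in bulk tissue fewer cells of a type and less RNA per cell cannot be told apart. The meristem genes STM and KNAT1 were highest in core 2 (315 and 287 CPM) and lowest in core 3 (97.0 and 98.4 CPM), the reverse of LOX2. The light-harvesting gene LHCB1.3 was lowest in core 2 (19327 CPM), as LOX2 was, but was nearly as low in core 4 (19879 CPM). It was highest in core 1 (28460 CPM), whereas LOX2 was highest in core 3. The epidermal gene PDF1 was also lowest in core 2 (678 CPM), with 1085 to 1138 CPM in the other cores. The part of these markers in the LOX2 values was not tested. All 4 shoot markers were far above the floor, whereas the root markers EXPA7 and RHD6 had 0 and 1 counts in total and MYB36 0.941 ± 0.650 CPM. The sperm marker GEX2 had no count, the pollen tube gene ANX1 11.4 to 26.9 CPM, and the petal and stamen genes AP3 and PI 1.31 to 3.88 and 2.93 to 4.29 CPM.

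Rapid wound and touch genes, which can respond to cutting at harvest, had their highest summed level in core 4, in large part through WRKY33. The 11 such genes with 1 model summed to 49.4, 39.2, 59.2 and 71.6 CPM in cores 1 to 4. Of them 5 were highest in core 4, and 2, 1 and 3 were highest in cores 1, 2 and 3. Among tested loci 20.2% were highest in core 4, but only 5 of the 11 passed that filter on low counts. The 5 highest in core 4 include CBF2 (1, 2, 0 and 2 counts) and ZAT12 (17, 10, 4 and 16 counts), which did not pass. The count and the share are therefore not directly comparable. WRKY40 was even, with 4.32, 4.59, 4.81 and 4.12 CPM in cores 1 to 4 and thus its lowest value in core 4. LOX4, AOC1 and AOC2 were also highest in core 4, and LOX4 and AOC1 also lowest in core 2. WRKY33, a defence regulator, had 14.4, 13.9, 20.6 and 29.4 CPM, the highest of the list in each core. The summed level in core 4 therefore does not describe the list as a whole. TCH4, a wall enzyme gene induced by touch, had 11.7, 5.62, 16.1 and 16.3 CPM. WRKY33 and TCH4 were the highest of the list per kb, and CBF1 (0.342 CPM per kb) and CBF2 (0.205 CPM per kb) were the lowest. Whether harvest had a part in the values of LOX4, AOC1 and AOC2 was not tested.

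The other jasmonate genes were 67 loci, grouped by role, of which 50 have 1 model. Of these 50, 31 passed the filter and 26 (83.9%) varied beyond counting noise, against 64.3% of tested protein-coding loci with 1 model. Their median level was 8.81 CPM per kb, against 4.99 CPM per kb for protein-coding loci. The chi-square test detects smaller ranges at higher counts, so the shares that varied depend on level and do not compare variability alone. Of 9 other synthesis genes (median 28.6 CPM per kb), AOC4 (189 CPM per kb) and the thiolase gene KAT2 of the last, peroxisomal steps (179 CPM per kb) were highest. AOC3 (8.14 CPM per kb) and DAD1, a lipase gene known for stamens (0.0727 CPM per kb and 4 counts in all), were lowest. The plastid desaturase gene FAD7, which supplies linolenic acid, had 202, 151, 265 and 256 CPM in cores 1 to 4, lowest in core 2 and highest in core 3, as LOX2 was. HPL1, LOX1 and LOX5 were listed for other branches of fatty acid oxygenation. Whether the HPL1 enzyme is active in Col-0 was not tested, so its transcript level is no measure of competition with AOS. AOS had 62.2 and HPL1 27.3 CPM per kb, and LOX1 and LOX5 had 14.2 and 9.05 CPM per kb.

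**Figure D4:**
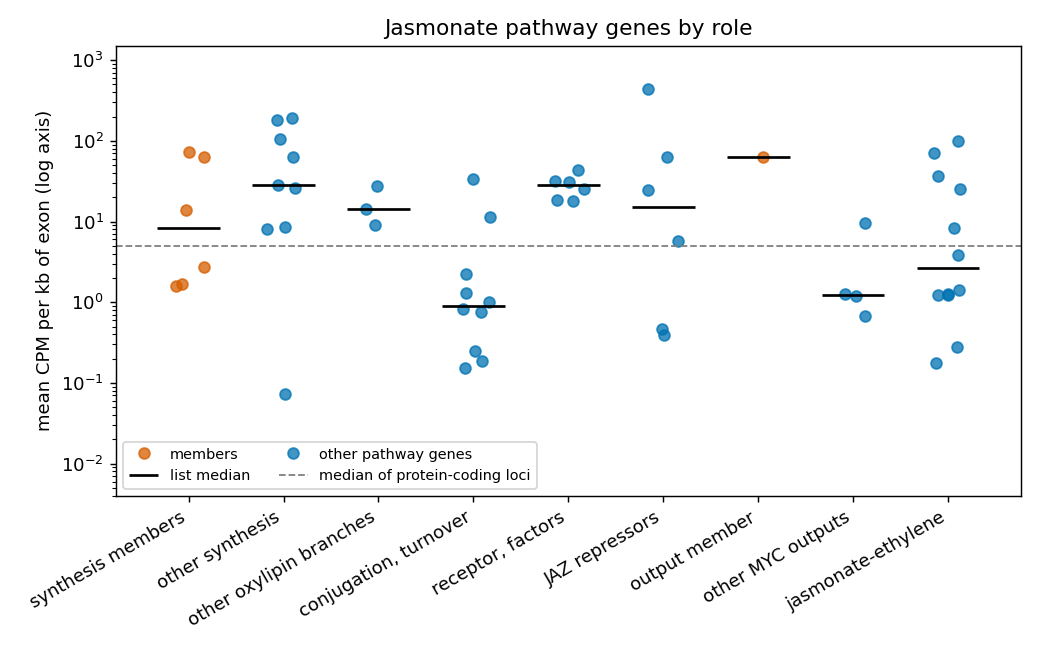
Mean CPM per kb of exon over 4 cores (log axis) of the jasmonate genes with 1 transcript model, by role, with a line at each list median and a dashed line at the median of nuclear protein-coding loci with 1 model (4.99). The genes of conjugation and turnover have the lowest median (0.910), and the highest single gene is the repressor gene JAZ12 (435).

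The measured genes that conjugate, inactivate or recycle the hormone had a low median level. These 10 had a median of 0.910 CPM per kb, and 3 stayed under 1 CPM in every core. JAR1 and JOX1 of the same list have several models and were not measured. The amidohydrolase genes IAR3 (33.9 CPM per kb) and ILL6 (11.4 CPM per kb) were highest, and the hydroxylase genes CYP94B1 (0.155 CPM per kb) and CYP94B3 (0.185 CPM per kb) lowest. CYP94B3, known for strong induction by wounding, had 3, 3, 0 and 3 counts. A count of 0 allows up to 0.418 to 0.562 CPM in these libraries. The receptor and transcription factor genes lay close together, from JAM1 (18.2) and COI1 (18.7) to MYC4 (31.6) and JAM3 (43.0 CPM per kb). COI1 had 44.5, 52.5, 48.3 and 42.7 CPM and did not pass the test of counting noise (adjusted p = 0.0809, chi-square test). The exons of MYC2 (25.5 CPM per kb) lie over exons of an opposite-strand locus along 98.5% of their length, and reads of both loci may be mixed unless strand was used in counting, which the sources do not state.

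The repressor genes spanned a wide range of levels. Of 6 measured, JAZ12 had 435 and JAZ2 62.8 CPM per kb, while JAZ7 (0.394) and JAZ8 (0.463 CPM per kb) stayed under 1 CPM in every core. All 4 that passed the filter varied beyond counting noise, and each was highest in core 1. JAZ12 had 582, 467, 372 and 460 CPM in cores 1 to 4, JAZ6 75.9, 53.4, 41.9 and 39.4 CPM, and JAZ5 19.7, 12.7, 8.38 and 11.2 CPM. Of the tested loci, 64.0% varied in this sense and 20.3% were highest in core 1. Of the 5 tested synthesis genes, AOS was highest in core 1, nearly level with core 2, and LOX2, LOX3, LOX4 and AOC2 were not highest in core 1. JAZ1, JAZ3, JAZ4, JAZ9, JAZ10 and JAZ11 have several models and were not measured.

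Among other outputs, in the MYC branch of VSP1 and VSP2, TAT3, a tyrosine aminotransferase gene induced by jasmonate, had 9.60 CPM per kb, and NAC019, NATA1 and NAC055 had 1.28, 1.21 and 0.683 CPM per kb. TAT3 had 20.8, 10.7, 34.8 and 25.9 CPM in cores 1 to 4 and so followed the order of LOX2. The list for the jasmonate and ethylene branch holds regulators as well as outputs, and the need of each gene for ethylene was not tested. In it the hevein-like gene PR4 (99.7 CPM per kb) and the ethylene factor gene EIN3 (70.9 CPM per kb) were highest. The defensin genes PDF1.3 (0.175 CPM per kb) and PDF1.1 (0.278 CPM per kb) were lowest. ORA59, whose ERF factor drives PDF1.2, had 3.35, 3.26, 4.502 and 5.81 CPM from 22 to 31 counts per core, and did not pass the test of counting noise (adjusted p = 0.140, chi-square test). The basic chitinase gene PR3 had 62.8, 58.3, 17.5 and 64.5 CPM, with core 3 the lowest, as for PDF1.2. The exons of PR3 lie under an opposite-strand locus along 33.1% of their length. The thionin gene THI2.1 had 17.3, 1.63, 5.90 and 7.31 CPM, highest in core 1 as PDF1.2 was, but lowest in core 2.

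Likeness of profile was measured as the root mean square difference of log2(CPM + 0.5), centred per gene, over the 4 cores. Nearest to LOX2 among 12770 loci were AT5G48470 (0.0456), AT4G39970 (0.0499) and AT1G53233 (0.0591), the last with 79.1% of its exons over an opposite-strand locus. TAT3 ranked 27th, at 0.100, while LOX3 ranked 2003rd, AOC2 2730th, LOX4 3502nd and AOS 8367th. With 4 cores many loci fall close together, and 250 lay within 0.2 of LOX2. In all, 1813 tested loci (14.2%), LOX2 included, were highest in core 3 and lowest in core 2. Nearest to PDF1.2 were AT5G01870 (0.126), AT1G23850 (0.167) and AT5G57567 (0.172), and 9 loci lay within 0.2. PR3 ranked 9th, at 0.193, PR4 1983rd and THI2.1 12419th. TAT3, PR3 and THI2.1 were singled out after their values were seen.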

How the data were processed

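RNA of 4 rosette cores was sequenced on an Ion Proton. Per the labels' protocols Torrent Suite 4.0.2 processed the runs, and HTSeq and the build TAIR10 are named per the submitters' processing notes. No aligner or counting option is stated in these sources. The deposited values are raw counts, with 1 row for each of 40745 TAIR10 transcript models and no normalization by the authors.

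Models were summed per locus (32678 loci, 5883 with several models). Loci with several models held 1.63 to 1.73% of the counts, so levels and tests use the 26516 nuclear loci with 1 model. Library totals ran from 5639486 to 7692788 counts. CPM use edgeR 4.0.16 TMM scaling in R 4.3.3. A count of 0 allows 3 counts. A total of 12771 loci passed edgeR's filter (minimum count 10, 1 group). Spread between cores was tested per locus by a chi-square statistic against Poisson counts and with edgeR's robust quasi-likelihood fit of an intercept (one-sided, with the prior degrees of freedom of loci that are no outliers), both with Benjamini-Hochberg adjustment over all tested loci and a threshold of 0.05. Pairs of genes used the log2 ratio of (count + 0.5) per kb of exon. The tests were checked on simulated data, with a pass mark set for the chi-square test only. For the quasi-likelihood test the simulation gave all loci the same dispersion, so it does not show the power of that test on these data. The quasi-likelihood test was set in this form after a first version, with the prior degrees of freedom of each locus, had been run on these data and had then failed that check, finding none of the changes put in. On these data the first version called 0 loci (660 at an unadjusted p under 0.05), and the one used 0 (661). DESeq2 1.42.0 size factors were an alternative. Libraries differed by more than sampling noise in each pair of cores. Names, exons, coordinates (1-based) and sequences come from RefSeq's TAIR10.1 annotation and genome, in which 31904 loci matched. The files hold no coordinates.

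The 10 genes and all gene lists were chosen with earlier results of these data known. Named genes are the 10, the 2 highest and 2 lowest of each list per kb, the 3 nearest profiles to LOX2 and PDF1.2, tandem neighbours and the paralogs. FAD7, JAZ5, JAZ6, MYC2, CYP94B3, ORA59, TAT3, PR3 and THI2.1 were added after their values were seen.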

Additional observations from a re-analysis of the deposited data

Results flagged for a closer look

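Among 51 jasmonate, wound and touch genes with at least 40 counts in all, the gap between 1 core and the nearest other exceeded the share of the range that Dixon's test allows at 95% for 4 samples in 2 genes. Chance gives about 1 in 20 groups. AOC1 had 4.12 CPM in core 4, against 1.04 to 1.53 CPM in the other cores. PR3 had 17.5 CPM in core 3, against 58.3 to 64.5 CPM in the other cores.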

How the results depend on the processing

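Of the 7 measured genes, all 7 kept at least 1 CPM in each core used under DESeq2 size factors, library totals and the omission of any 1 core. The number of jasmonate genes that varied beyond counting noise stayed between 4 and 6 under all alternatives, and over all loci between 6475 and 8482. LOX2, AOS, AOC2 and PDF1.2 passed in every alternative, LOX3 in none, and LOX4 in 8 of 10. AOC1, tested only with no filter on low counts, then passed (3.98-fold, adjusted p = 0.00119, chi-square test). With no filter, edgeR's quasi-likelihood fit called 431 loci, of which 1 was a jasmonate gene, PDF1.2 (adjusted p = 0.00875 by edgeR, from 0.00875 to 0.987 over its alternatives). The filter changes which loci set the trend, and the cause was not tested. The log2 ratio of AOS over LOX2 ranged from -0.43 to 0.11 without 1 core each and was 0.11 without core 3, so its sign rests on that core. The other 5 pair ratios kept their sign under every alternative. Leaving out 1 core each gave 0.68 to 1.03 for LOX3 over LOX4, 4.52 to 4.85 for LOX2 over LOX3, 5.25 to 5.67 for LOX2 over LOX4, -3.39 to -2.93 for AOC1 over AOC2 and 2.01 to 2.46 for AOS over AOC2. Per kb of coding sequence AOC2 had 23.8 CPM per kb. No paired analysis was possible because all samples belong to 1 group.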
